A study of Mus musculus with 6 samples.

Results

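Chemokine ligands and their receptors were examined in bulk RNA-seq of tumours that the mouse glioma line CT2A formed under the skin, with 3 libraries labelled Siglece knockout (KO) and 3 labelled wild type (WT). Siglece encodes Siglec-E, an inhibitory receptor of myeloid cells that binds sialic acids. The labels name brain as the source and a subcutaneous tumour as the tissue, and the tissue was followed. They name no sort, treatment, time or age, and do not say which cells lack the gene, how the allele was made or whether libraries of a group came from separate mice. The genes were chosen by symbol, as Ccl, Cxcl, Ccr, Cxcr and Ackr1 to Ackr4 names with Xcl1, Xcr1, Cx3cl1 and Cx3cr1, which 63 of the 55291 symbols in the table matched. Of these, 54 had at least 10 counts over the 6 libraries and are described here: 32 ligands, 18 signalling receptors and 4 atypical receptors. A filter on low counts left 46 of them in the test of KO against WT, and the 8 below it are described by their counts.

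Chemokines are small secreted proteins that guide leukocytes through G protein-coupled receptors, and their names record how the first cysteines are spaced (CC, CXC, XC or CX3C). Groups of ligands share a receptor: Cxcr3, on activated T cells, binds interferon-induced ligands, Cxcr2, on neutrophils, binds a cluster of ligands produced in inflammation, and Ccr2, on monocytes, binds the Ccl2 group. Atypical receptors bind chemokines without G protein signalling and remove or carry them.

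The labels were checked with Siglece, which had 0, 8 and 0 counts in KO libraries 1, 2 and 3 against 74, 99 and 64 counts in WT replicates 1, 2 and 3. Each column name carries a pair of serial numbers that the labels do not explain. The longer one does not interleave between the genotypes, so whatever it stands for and the genotype cannot be told apart, while the shorter one does interleave. Library totals ran from 24369359 to 40574093 counts. Markers of the line and of neural cells were present in each library. Their summed level was 67.0, 552 and 42.8 CPM (counts scaled to library size) in KO libraries 1, 2 and 3. It lay below the 764 to 792 CPM of WT (2 of 6 genes lower). Gfap had 0 counts in KO replicate 3. T cell, macrophage and stromal markers ran the other way, and a level in bulk tissue cannot tell fewer cells of a type from less RNA per cell. Summed T cell markers were at 148 to 475 CPM in KO tumours and 50.2 to 99.0 CPM in WT (6 of 7 genes higher), and macrophage markers at 1912 to 6457 CPM in KO and 781 to 1349 CPM in WT (6 of 7 higher). Fibroblast markers were at 5281 to 15336 CPM in KO tumours and 893 to 1528 CPM in WT (5 of 6 higher), and endothelial markers at 287 to 908 CPM in KO and 59.7 to 90.3 CPM in WT (5 of 6 higher). Neutrophil markers reached 72.3 to 278 CPM in KO tumours and 16.7 to 20.4 CPM in WT, with 2 of 4 tested genes higher, while Ly6g had 0 counts in 5 libraries and 1 count in WT replicate 3. Dendritic cell markers were at 27.3 to 78.1 CPM in KO and 13.7 to 30.0 CPM in WT (2 of 6 higher), and B cell markers at 11.4 to 20.9 CPM in KO and 7.40 to 11.5 CPM in WT (1 of 4 tested higher), so that both ranges overlapped. Adipocyte markers were at 41.9 to 842 CPM in KO, highest in KO replicate 3, and 10.4 to 25.1 CPM in WT (1 of 4 higher). Fabp4 made up most of these sums, at 97.6, 38.7 and 810 CPM in KO libraries 1, 2 and 3. Adipoq, Plin1 and Cidec overlapped between the groups and were not called, so the separation of the sums rested on Fabp4. Keratinocyte markers stayed at or under 5.14 CPM in every library. The part of these markers in the results that follow was not tested.

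Many chemokine genes were higher in KO tumours and none was called lower. Of the 46 genes tested, 19 were higher at an adjusted p under 0.05 (edgeR): 10 of 28 ligands, 7 of 14 signalling receptors and 2 of 4 atypical receptors. Over all 18621 genes tested, 11.2% were called higher and 0.226% lower. At an unadjusted p under 0.05, edgeR gave 29 chemokine genes higher in KO and 2 lower, Ccl25 and Ackr3, both described further on. Of all 18621 genes tested, 5919 had such a p in either direction. The median log2 fold change was 1.58 for ligands, 2.09 for signalling receptors and 2.34 for atypical receptors, against -0.05 for all genes tested. Groups did not overlap, with KO higher, for 28 of the 46 genes, and with KO lower for 1, Ccl25; of all genes tested, 24.6% and 19.5% did so. Either call was made for 11.4% of all genes.

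The size of the difference varied with the KO library. KO replicate 2 was the lowest of the KO libraries for 16 of the 19 called genes, as it was for 93.1% of all genes called higher. KO replicate 3 was the highest KO library for 11 and KO replicate 1 for 8, against 51.6% and 48.2% of all genes called higher. Over the 46 tested genes, the highest of all 6 libraries was KO replicate 3 in 22 and KO replicate 1 in 15, against 25.2% and 20.3% of all genes. The calls also depended on the full set of libraries, as they did over the whole table. Without KO replicate 1 or any single WT library, edgeR called none of the 19 and 0 of all genes. Each of the 19 was still higher in KO in those fits. This direction could hardly change, because every KO library lay above every WT library for each of them. Without KO replicate 3, 6 of the 19 were called (Cxcl12, Ccl9, Cxcr3, Cxcr4, Ccr2 and Ackr2), and without KO replicate 2 all 19 were. Over all genes, 943 were called higher without KO replicate 3 and 4449 without KO replicate 2, against 2083 with all libraries. At an unadjusted p under 0.05, edgeR gave 27 to 31 chemokine genes higher in these 6 fits. Over all genes tested, 3461 (without KO replicate 1) to 9832 (without KO replicate 2) had such a p in the same fits. The counts of all genes were not split by direction, so they give no share for genes higher in KO alone.

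**Figure D1:**
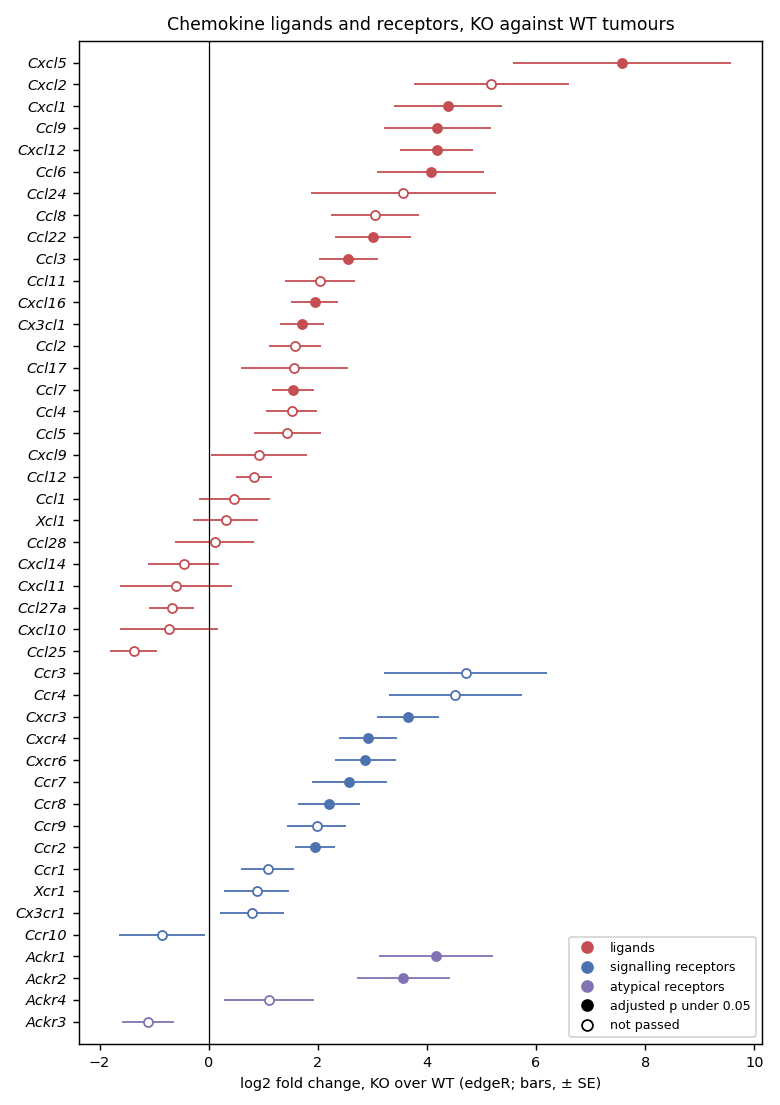
Log2 fold change of KO over WT (x axis) for 45 tested chemokine genes (y axis), with bars of 1 SE from edgeR. Filled points are the 18 genes shown that are past an adjusted p of 0.05, all to the right of 0, and the open points left of 0 include Ccl25 and Ackr3.

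Cxcl12 and Cxcl16 were the CXC ligands with high levels in each KO library. Cxcl12, the stromal ligand that retains leukocytes and progenitors through Cxcr4, was at 268, 69.5 and 379 CPM in KO libraries 1, 2 and 3, against 7.40, 15.3 and 16.7 CPM in WT replicates 1, 2 and 3. Each KO library lay above each WT library. Its log2 fold change of 4.18 (SE 0.67, adjusted p = 0.0246, edgeR) stood among the smallest adjusted p values of the family. Cxcl16, a membrane-bound ligand of Cxcr6 that also takes up oxidized lipoprotein, was at 459, 204 and 460 CPM in KO tumours and 135, 82.4 and 75.3 CPM in WT. The groups did not overlap, at a log2 fold change of 1.94 (SE 0.43, adjusted p = 0.0307). Exons of Cxcl16 share 552 of 3021 bases with Zmynd15 on the other strand, and reads of the pair cannot be told apart in these unstranded libraries. Cx3cl1, the membrane-anchored ligand of Cx3cr1, had low levels of 7.31, 5.27 and 5.88 CPM in KO tumours and 1.45, 2.31 and 1.87 CPM in WT. Its KO libraries were close to each other and above all WT libraries (log2 fold change 1.71, SE 0.41, adjusted p = 0.0381), and it missed the threshold (edgeR) without composition scaling and with no low-count filter.

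The ligands of Cxcr2 were nearly absent from WT tumours and were concentrated in KO replicate 3. Cxcl5 was at 0.544, 2.19 and 80.6 CPM in KO libraries 1, 2 and 3 and at 0.164, 0.228 and 0.0298 CPM in WT. Its log2 fold change was 7.57 (SE 2.0, adjusted p = 0.0491) and 3.22 without KO replicate 3, where it was not called (0.0971). With all libraries kept, it also missed the threshold with RLE scaling, without composition scaling, with robust edgeR and with limma-voom. Cxcl1 was at 1.26, 0.741 and 3.69 CPM in KO tumours and 0.0273, 0.0570 and 0.179 CPM in WT, with a log2 fold change of 4.38 (SE 0.99, adjusted p = 0.0320). It was the more even of the pair, at 3.45 without KO replicate 3, although again not called there (0.0673). Cxcl2 did not pass: it was at 1.26, 2.96 and 36.9 CPM in KO tumours and 0.109, 0.741 and 0.268 CPM in WT (log2 fold change 5.18, SE 1.42, adjusted p = 0.0543, and 2.48 without KO replicate 3). Cxcl3 was below the filter, with 1, 15 and 30 counts in KO tumours and 1, 0 and 0 counts in WT. Their receptor Cxcr2 was also below it, with 3, 12 and 236 counts in KO libraries 1, 2 and 3 and 2, 4 and 0 counts in WT, so that ligands and receptor were highest in the same library. KO replicate 3 likewise held 724 counts of the neutrophil gene S100a8, against 7 and 34 in KO replicates 1 and 2 and 11 to 33 in WT. The 6 neutrophil markers did not share 1 pattern: S100a9 and Retnlg were also highest in KO replicate 3, Csf3r was at 146, 40.2 and 114 CPM in KO libraries 1, 2 and 3, Mmp9 was at 35.3, 30.0 and 58.8 CPM there, and Ly6g was at 0 in all 3. Their part in the result was not tested.

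The promoters of Cxcl1, Cxcl2 and Cxcl3, which lie in 1 cluster on chromosome 5, are shown because these genes were highest together in KO replicate 3, and that of Cxcl10 because it was lowest there. Each run holds 250 bases before and 50 after the transcription start, from RefSeq on GRCm38.p6, the assembly that mm10 names. Capitals mark matches to a kappaB motif, searched as GGGANNTTCC on both strands, and, in Cxcl10 alone, to the interferon-stimulated response element searched as GAAANNGAAA.
Cxcl1 promoter, chr5:90890995-90891294, plus strand: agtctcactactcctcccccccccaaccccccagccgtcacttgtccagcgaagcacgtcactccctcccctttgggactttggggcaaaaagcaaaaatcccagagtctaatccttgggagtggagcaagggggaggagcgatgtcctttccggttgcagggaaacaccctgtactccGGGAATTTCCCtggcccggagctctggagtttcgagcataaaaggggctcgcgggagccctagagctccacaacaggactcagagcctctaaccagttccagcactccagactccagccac
Cxcl2 promoter, chr5:90903649-90903948, plus strand: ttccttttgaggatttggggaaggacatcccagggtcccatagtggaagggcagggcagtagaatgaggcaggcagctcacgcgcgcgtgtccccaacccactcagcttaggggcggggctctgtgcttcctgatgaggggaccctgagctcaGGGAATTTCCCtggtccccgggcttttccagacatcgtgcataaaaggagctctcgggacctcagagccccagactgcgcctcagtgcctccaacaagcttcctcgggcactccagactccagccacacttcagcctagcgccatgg
Cxcl3 promoter, chr5:90785851-90786150, plus strand: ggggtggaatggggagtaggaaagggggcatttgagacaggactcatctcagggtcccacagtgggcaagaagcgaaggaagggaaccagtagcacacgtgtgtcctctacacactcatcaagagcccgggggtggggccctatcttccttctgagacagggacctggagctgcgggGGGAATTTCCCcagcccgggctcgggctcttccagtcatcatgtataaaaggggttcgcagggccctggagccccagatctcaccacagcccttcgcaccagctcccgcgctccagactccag
Cxcl10 promoter, chr5:92348840-92349139, minus strand: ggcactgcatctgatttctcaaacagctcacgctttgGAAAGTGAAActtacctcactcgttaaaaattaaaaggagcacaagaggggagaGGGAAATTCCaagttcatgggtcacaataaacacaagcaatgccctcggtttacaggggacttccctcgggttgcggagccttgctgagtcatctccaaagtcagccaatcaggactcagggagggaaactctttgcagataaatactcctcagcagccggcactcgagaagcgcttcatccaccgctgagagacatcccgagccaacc
The first 3 promoters carry the same 11-base stretch, GGGAATTTCCC, in which kappaB matches on the plus and minus strands overlap. Its first base is at -71 in Cxcl1, -97 in Cxcl2 and -73 in Cxcl3, counted from the transcription start, and it occurs in 12 of all 32851 promoters in the table (0.0365%). A kappaB match of any kind stood in 1.47% of all promoters and in those of Ccl1, Ccr3, Cxcl1, Cxcl2, Cxcl3 and Cxcl10 among the 40 chemokine genes with an entry, which Cxcl5 lacks. The Cxcl10 promoter had its kappaB match from -159 and its response element match from -213. The response element was in 3.44% of all promoters, and Cxcl14 was the other chemokine gene with one. These matches are letters in a window and were not tested as binding sites.

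The interferon-induced ligands of Cxcr3 did not follow their receptor. Cxcl9 was at 544, 344 and 22.4 CPM in KO libraries 1, 2 and 3 and at 209, 156 and 114 CPM in WT. Cxcl10 was at 246, 527 and 19.7 CPM in KO tumours and 577, 385 and 353 CPM in WT. Cxcl11 was at 7.52, 16 and 0.199 CPM in KO tumours and 14.4, 12.4 and 9.11 CPM in WT. The groups overlapped for Cxcl9, Cxcl10 and Cxcl11, and KO replicate 3 had the lowest level of all 6 libraries for each. None passed, at log2 fold changes of 0.93 (SE 0.88, adjusted p = 0.474), -0.73 (SE 0.90, adjusted p = 0.583) and -0.60 (SE 1.02, adjusted p = 0.700). Without KO replicate 3 they were 1.45, -0.21 and -0.06, again not called. Over all genes tested, 29.8% had their lowest level in KO replicate 3. Cxcl11 shares 1582 of 3794 exon bases with Gm2673 and Cxcl10 shares 133 of 2252 with Art3, in each case on the other strand.

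**Figure D2:**
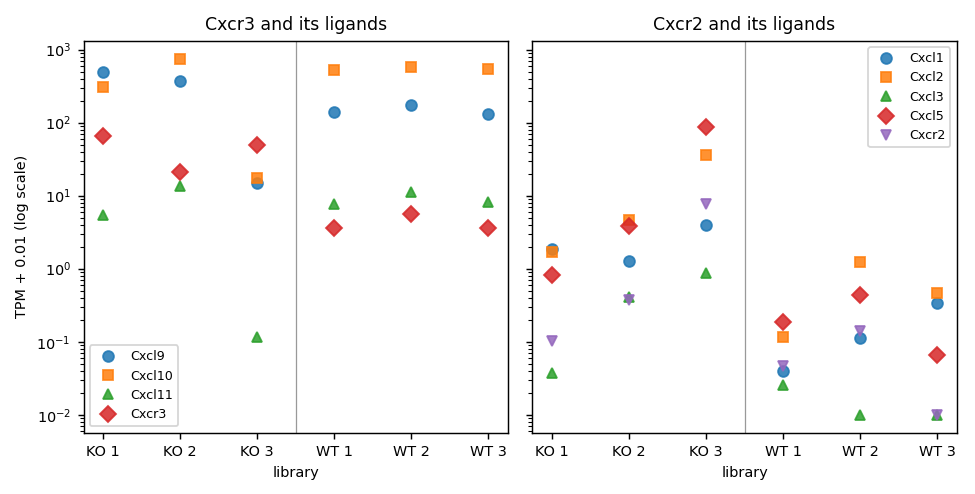
Level per exon length (TPM + 0.01, log scale, y axis) of Cxcr3 and its ligands (left) and of Cxcr2 and its ligands (right) in each KO and WT library (x axis). In KO replicate 3 Cxcl9 (14.8 TPM), Cxcl10 (17.4 TPM) and Cxcl11 (0.105 TPM) lay below Cxcr3 (50.1 TPM), while Cxcl5 (86.2 TPM) and Cxcl2 (35.5 TPM) had their highest values.

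Among CC ligands, the myeloid genes Ccl6 and Ccl9 had the highest fold changes past the threshold. Ccl6, a mouse ligand of Ccr1 made by macrophages and neutrophils, was at 261, 71.8 and 1221 CPM in KO libraries 1, 2 and 3 and 43.4, 24.8 and 24.5 CPM in WT. Its neighbour Ccl9 was at 147, 55 and 886 CPM in KO tumours and 24.3, 19.1 and 16.2 CPM in WT. Both had every KO library above every WT library and their peak in KO replicate 3. The log2 fold changes were 4.07 for Ccl6 (SE 0.98, adjusted p = 0.0380) and 4.19 for Ccl9 (SE 0.98, adjusted p = 0.0356). Without KO replicate 3 they were 2.40 (adjusted p = 0.0549) and 2.32 (adjusted p = 0.0454), so that Ccl9 alone was still called.

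Ccl3, an inflammatory ligand of Ccr1, was at 32.6, 12.8 and 51.7 CPM in KO tumours and 6.28, 6.47 and 3.63 CPM in WT. Ccl22, the dendritic cell and macrophage ligand of Ccr4 that attracts regulatory T cells, was at 30.1, 5.73 and 32.6 CPM in KO tumours and 4.32, 2.11 and 2.05 CPM in WT. Ccl7, a monocyte attractant and ligand of Ccr2, was at 107, 72.7 and 93.8 CPM in KO tumours and 41.9, 35.0 and 16.6 CPM in WT. For each of these genes the groups did not overlap, and KO replicate 2 was the lowest of the KO libraries. The log2 fold changes were 2.56 (SE 0.54, adjusted p = 0.0279) for Ccl3, 3.01 (SE 0.69, adjusted p = 0.0330) for Ccl22 and 1.55 (SE 0.38, adjusted p = 0.0394) for Ccl7.

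Ccl8, a ligand of Ccr8 in mice, had the highest mean level per exon length of any chemokine gene and just missed the threshold. It was at 592, 254 and 1624 CPM in KO libraries 1, 2 and 3 and 187, 61.2 and 49.2 CPM in WT (log2 fold change 3.05, SE 0.81, adjusted p = 0.0504). Without KO replicate 3 the log2 fold change was 2.05 (adjusted p = 0.120, edgeR). With all libraries, Ccl8 was called higher by DESeq2, with no low-count filter and without composition scaling. It was not called with RLE scaling, limma-voom or robust edgeR. No KO library was below a WT library, the closest being KO replicate 2 and WT replicate 1. The Ccr2 ligand Ccl2 was at 89.2, 57.2 and 26.7 CPM in KO tumours and 22.1, 24.2 and 11.7 CPM in WT (log2 fold change 1.58, SE 0.48, adjusted p = 0.0734), and it was called higher without KO replicate 3 (1.89, adjusted p = 0.0455). Ccl4, an inflammatory CC ligand made by activated leukocytes, was at 26.9, 18.6 and 37.8 CPM in KO tumours and 14.3, 9.94 and 4.67 CPM in WT (1.52, SE 0.47, adjusted p = 0.0750). The eosinophil attractant Ccl11 was at 12.7, 8.49 and 37.9 CPM in KO tumours and 7.21, 2.79 and 4.34 CPM in WT (2.04, SE 0.64, adjusted p = 0.0790, and 1.11 without KO replicate 3), and the Ccr2 ligand Ccl12 at 18.3, 14.9 and 22.7 CPM in KO tumours and 12.4, 11.1 and 7.68 CPM in WT (0.84, SE 0.33, adjusted p = 0.130). These 4 genes had no overlap between groups and did not pass in the main fit. With all libraries, Ccl2, Ccl4 and Ccl11 were called higher by DESeq2 and with no low-count filter, but in no other setting. Ccl12 was called in none of them. Ccl5, made by T cells and macrophages, overlapped because WT replicate 1 stood high, with 269, 76.4 and 241 CPM in KO tumours and 129, 49.1 and 37.6 CPM in WT (1.44, SE 0.61, adjusted p = 0.151).

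Ccl25, the thymic and gut ligand of Ccr9, was the only tested ligand whose groups did not overlap with KO lower. It was at 6.09, 13.6 and 4.89 CPM in KO tumours and 20.8, 20.1 and 22.7 CPM in WT (log2 fold change -1.37, SE 0.43, adjusted p = 0.0786). It was called lower without KO replicate 2 (-1.97, adjusted p = 0.00273). Its exons share 204 of 7445 bases with Elavl1 on the other strand. The eosinophil attractant Ccl24 rested on 1 library, at 0.204, 1.20 and 23.8 CPM in KO tumours and 1.64, 0.399 and 0.0595 CPM in WT (log2 fold change 3.57, SE 1.69, and -0.04 without KO replicate 3). The other tested ligands, Ccl27a, Ccl17, Ccl1, Cxcl14, Xcl1 and Ccl28, had overlapping groups and log2 fold changes from -0.68 to 1.57, none past the threshold. Ccl27a has near-identical copies, of which Gm20878 holds 28.4% of its 50-base stretches, so its counts are uncertain.

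**Figure D3:**
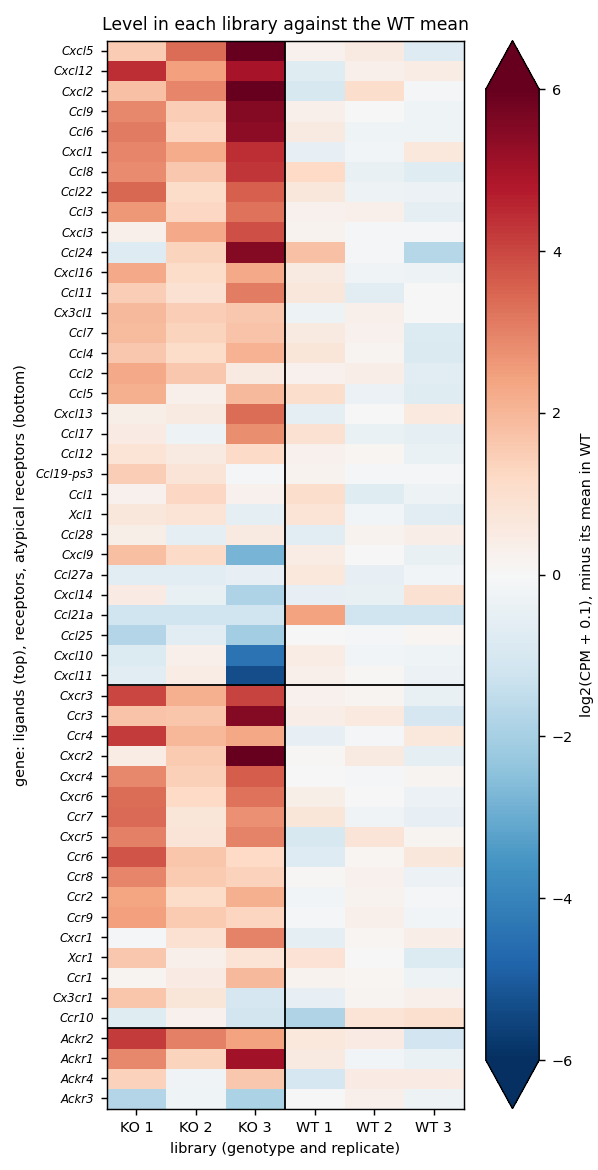
Log2(CPM + 0.1) minus its mean in WT (colour) for 53 chemokine genes (rows: ligands, signalling receptors, atypical receptors, separated by lines) in each library (columns, KO left of WT). Most rows are red in KO, palest in KO replicate 2, and Cxcl9, Cxcl10, Cxcl11 and Cxcl14 are blue in KO replicate 3.

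Cxcr3, Cxcr6, Cxcr4 and Ccr2 were higher in KO, with each KO library above each WT library, while Ccr1 and Cx3cr1 overlapped between the groups. Cxcr3, on activated T and NK cells, was at 41.5, 11.2 and 43.5 CPM in KO libraries 1, 2 and 3 and 3.03, 2.79 and 1.82 CPM in WT. Cxcr6, on effector and resident T cells, was at 116, 26.2 and 111 CPM in KO tumours and 14.3, 11.6 and 8.84 CPM in WT. Cxcr4, found on most leukocytes and on many tumour cells, was at 115, 40.9 and 193 CPM in KO tumours and 14.9, 14.1 and 17.0 CPM in WT. The WT libraries were tightly grouped for each, and no KO library reached down to them. The log2 fold changes were 3.65 (SE 0.57, adjusted p = 0.0246) for Cxcr3, 2.87 (SE 0.56, adjusted p = 0.0251) for Cxcr6 and 2.92 (SE 0.53, adjusted p = 0.0246) for Cxcr4.

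Ccr2, which brings monocytes from the blood, was at 172, 73.4 and 148 CPM in KO tumours and 30.0, 39.1 and 32.5 CPM in WT (log2 fold change 1.95, SE 0.36, adjusted p = 0.0246). Each KO library lay above each WT library. In contrast, the Ccl3 receptor Ccr1 overlapped, at 17.9, 22.9 and 62.9 CPM in KO tumours and 18.5, 17.7 and 12.9 CPM in WT (1.08, SE 0.49, adjusted p = 0.170). Cx3cr1, on patrolling monocytes and microglia, did so too, at 56.1, 29.1 and 8.82 CPM in KO tumours and 12.6, 19.9 and 21.8 CPM in WT (0.79, SE 0.59, adjusted p = 0.368). KO replicate 3 was thus the highest library for Ccr1 and the lowest for Cx3cr1.

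Ccr7, which leads dendritic cells and naive T cells to lymph nodes, was at 40.0, 6.24 and 25.1 CPM in KO tumours and 6.15, 3.16 and 2.59 CPM in WT. KO replicate 2 and WT replicate 1 nearly touched, and its log2 fold change of 2.58 (SE 0.69, adjusted p = 0.0497) passed narrowly. Ccr8, carried by regulatory T cells in tumours, was at 9.15, 3.56 and 3.09 CPM in KO tumours and 1.20, 1.37 and 0.863 CPM in WT (2.20, SE 0.57, adjusted p = 0.0472). Both missed the threshold with RLE scaling, without composition scaling and with limma-voom, and Ccr7 also with robust edgeR. Ccr4, the receptor of Ccl17 and Ccl22, did not pass at 74, 16 and 12 counts in KO tumours and 0, 1 and 4 counts in WT (log2 fold change 4.52, SE 1.22, adjusted p = 0.0517). Ccr9 was at 4.83, 2.54 and 2.09 CPM in KO tumours and 0.710, 0.997 and 0.684 CPM in WT (1.98, SE 0.54, adjusted p = 0.0548). The eosinophil receptor Ccr3 had 16, 19 and 178 counts in KO tumours and 6, 7 and 0 counts in WT (4.71, SE 1.49, adjusted p = 0.0811), and its log2 fold change was 2.09 without KO replicate 3 (adjusted p = 0.269). The groups of Ccr4, Ccr9 and Ccr3 did not overlap, and those of Xcr1 (0.88, SE 0.59, adjusted p = 0.319) and Ccr10 (-0.86, SE 0.79, adjusted p = 0.464) did.

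Atypical receptors split. Ackr2, which scavenges inflammatory CC chemokines, was at 6.33, 2.73 and 1.74 CPM in KO libraries 1, 2 and 3 and 0.437, 0.399 and 0.0595 CPM in WT. Ackr1, the Duffy receptor of venular endothelium and red cells, was at 2.62, 0.826 and 12.1 CPM in KO tumours and 0.437, 0.228 and 0.179 CPM in WT. In both genes every KO library exceeded every WT library. The log2 fold changes were 3.57 for Ackr2 (SE 0.86, adjusted p = 0.0376) and 4.17 for Ackr1 (SE 1.04, adjusted p = 0.0422, and 2.56 without KO replicate 3, not called). The annotation gives Ackr1 361 of 1405 exon bases in common with Cadm3 on the same strand, and these reads cannot be assigned to either. Ackr3, which scavenges Cxcl12, was the atypical receptor with the highest level and lay at 19.6, 57.2 and 17.9 CPM in KO tumours and 66.6, 83.6 and 54.8 CPM in WT (log2 fold change -1.11, SE 0.47, adjusted p = 0.153). KO replicate 2 fell inside the WT range, and without it Ackr3 was called lower (-1.88, adjusted p = 0.00278). Summed markers of the line and of neural cells were also highest among KO libraries in KO replicate 2. Their 552 CPM there lay below the 764 to 792 CPM of WT, unlike Ackr3. The part of these markers was not tested. Ackr4 did not pass (1.11, SE 0.82, adjusted p = 0.361).

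Summed over members and set per exon length (TPM), ligand transcripts were more abundant in KO tumours and differently made up. The 32 ligands reached 6905, 4225 and 10102 TPM in KO libraries 1, 2 and 3, against 2169, 1973 and 1599 TPM in WT. The 18 signalling receptors reached 704, 285 and 560 TPM in KO and 83.8, 151 and 136 TPM in WT. For both sums the groups did not overlap, with mean log2 differences of 1.81 and 2.01, and the exact two-sided permutation p was 0.1 for each, the smallest that 3 against 3 libraries allow. The 4 atypical receptors, at 27.6, 60.0 and 29.4 TPM in KO and 41.4, 87.2 and 57.5 TPM in WT, overlapped (exact permutation p = 0.300).

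Ccl8 took 46.6%, 37.9% and 62.7% of ligand TPM in KO libraries 1, 2 and 3 and 34.3%, 20.8% and 20.8% in WT. Cxcl10 took 4.40%, 17.9% and 0.172% in KO and 24%, 29.8% and 33.9% in WT. Ccl8 was thus the first ligand in each KO library, and Cxcl10 was first in WT replicates 2 and 3 and second to Ccl8 in WT replicate 1. Ccl6 took 5.84%, 3.05% and 13.4% in KO and 2.27%, 2.40% and 2.95% in WT. Cxcl16 kept a like share, 4.75 ± 1.59% in KO and 4.77 ± 0.610% in WT (SD, n = 3). Among signalling receptors Cxcr4 took the greatest share in each library, 29.5 ± 7.39% in KO and 20.6 ± 3.18% in WT, and Ackr3 held 58.8%, 91.8% and 36.3% of atypical receptor TPM in KO and 97.7%, 98.4% and 98.5% in WT.

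**Figure D4:**
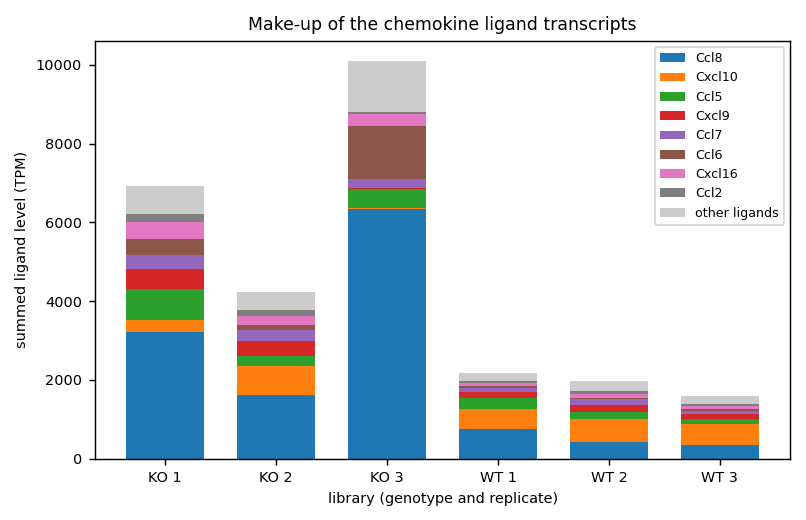
Summed ligand level (TPM, y axis) in each KO and WT library (x axis), split into the 8 ligands with the highest mean share and all others. Ccl8 is the tallest block in the KO libraries (3216, 1600 and 6330 TPM), and Cxcl10 is a thin band in KO replicate 3 (17.4 TPM).

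Ligands were then set against their receptors within each library, as the log2 ratio of their levels per exon length, for textbook mouse pairs. The lengths are those of merged exons, not of transcripts, and the order of ligand and receptor depends on them. A KO minus WT difference of the ratio does not. Of 34 pairs listed, 26 had both members tested. The ligand exceeded its receptor in all 6 libraries for 15 pairs, the receptor exceeded the ligand in all 6 for 3 pairs, and the order changed between libraries for 8. Both members were called higher in KO in 4 pairs, 1 member in 15 and neither in 7. The ratio was higher in KO without overlap in 6 pairs and lower in 5. Each of these 11 had an exact two-sided permutation p of 0.1, the smallest possible, and an adjusted p of 0.236 over the 26 pairs, so none passed. Several of the 11 share a receptor (Cxcr3 or Ccr1) or a ligand (Cxcl12), so they are not independent. Of all single genes tested, 24.6% had groups not overlapping with KO higher and 19.5% with KO lower. The share for ratios of other gene pairs was not computed.

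The ratios furthest below WT were those of Cxcl11 and Cxcl10 to Cxcr3, and that of Cxcl9 lay close to that of Ccl25 to Ccr9. Log2 Cxcl10 over Cxcr3 was 2.19, 5.18 and -1.52 in KO libraries 1, 2 and 3 and 7.19, 6.72 and 7.21 in WT, a mean difference of -5.09. Log2 Cxcl9 over Cxcr3 was 2.91, 4.14 and -1.76 in KO and 5.30, 4.99 and 5.16 in WT, a difference of -3.39. Cxcl11 stood above Cxcr3 in all WT libraries and below it in all KO libraries, at -3.59, -0.62 and -8.73 in KO and 1.11, 1.02 and 1.19 in WT. Without KO replicate 3 the differences were smaller in size, at -3.35 for Cxcl10, -1.62 for Cxcl9 and -3.21 for Cxcl11. Their sign could not change, because every KO ratio lay below every WT ratio in these pairs. The ratio of Ccl25 to Ccr9 was also lower, at 0.80, 2.88 and 1.68 in KO and 5.31, 4.78 and 5.49 in WT, as was that of Ccl12 to Ccr2, at 0.43, 1.35 and 0.95 in KO and 2.37, 1.84 and 1.58 in WT.

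Cxcl12 stood higher in KO relative to both of its receptors. Against Ackr3 its log2 ratio was 2.49, -1.01 and 3.11 in KO and -4.45, -3.74 and -3.00 in WT, a mean difference of 5.26. Against Cxcr4 it was -0.95, -1.41 and -1.21 in KO and -3.18, -2.06 and -2.20 in WT, a difference of 1.29. Per merged exon length, Cxcr4 thus lay above Cxcl12 in all 6 libraries, while the order of Cxcl12 and Ackr3 turned in KO replicates 1 and 3. The order with Cxcr4 rests on lengths of 8176 bases for Cxcl12 and 1808 for Cxcr4. By raw counts, Cxcl12 exceeded Cxcr4 in each KO library and in WT replicate 2, and lay below it in WT replicates 1 and 3. The log2 ratios of the Ccr1 ligands Ccl6, Ccl9 and Ccl3 to Ccr1 were also higher in KO, by 2.38, 2.43 and 1.52, and Cx3cl1 relative to Cx3cr1 by 1.25. The ratio of Cx3cl1 to Cx3cr1 was -2.74, -2.26 and -0.39 in KO and -2.91, -2.90 and -3.33 in WT. Its difference was 0.55 without KO replicate 3. Ccl2 and Ccl7 against Ccr2 and Cxcl16 against Cxcr6 overlapped between the groups, with differences from -0.72 to -0.24.

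**Figure D5:**
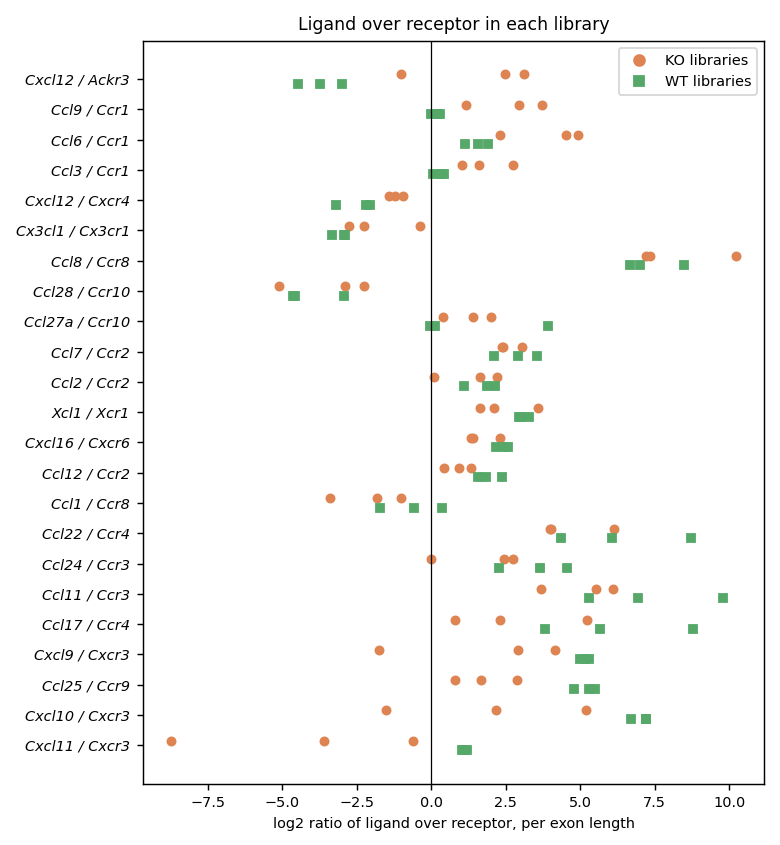
Log2 ratio of ligand over receptor per exon length (x axis) for 23 pairs (y axis, ordered by the KO minus WT difference), with 1 point for each KO (circle) and WT (square) library. Cxcl12 over Ackr3 stands at the top, with KO above WT, and Cxcl10 and Cxcl11 over Cxcr3 stand at the bottom, with KO below WT.

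Of the 8 genes below the filter, Cxcr1, the other receptor on neutrophils, had 1, 6 and 21 counts in KO libraries 1, 2 and 3 and 0, 2 and 3 counts in WT. Cxcr5, which guides B cells to follicles, had 43, 8 and 28 counts in KO tumours and 0, 8 and 4 in WT, and its ligand Cxcl13 had 4, 6 and 36 in KO and 1, 3 and 6 in WT. Ccr6 had 66, 16 and 6 counts in KO tumours and 0, 3 and 6 in WT. These counts were low and mostly came from 1 or 2 KO libraries. Ccl21a, a lymph node ligand of Ccr7, had 0 counts in each KO library and 41, 0 and 0 counts in WT, and the pseudogene Ccl19-ps3 had at most 6 counts in any library. Both have near-identical copies and are uncertain. With 0 counts, levels up to 0.0855 to 0.150 CPM remain possible in the KO libraries.

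Other genes of the chemokine pathway were examined beside the family. They act downstream of the receptors, present or cleave chemokines, or are ligands and related receptors outside the naming rule. Of 45 tested genes of 46 listed, 22 were higher in KO and 0 lower (edgeR), with a median log2 fold change of 1.67, against 11.2% higher, 0.226% lower and a median of -0.05 over all genes tested. Effectors of migration counted 9 higher of 11, among them the Rac activator Dock2 (log2 fold change 2.45, SE 0.39, adjusted p = 0.0246), its partner Elmo1 (2.59, SE 0.48, adjusted p = 0.0246) and the leukocyte GTPase Rac2 (2.78, SE 0.50, adjusted p = 0.0246). The widely expressed Rac1 did not pass (0.63, SE 0.34, adjusted p = 0.227). G protein subunits counted 3 of 6, receptor kinases and arrestins 3 of 6, and RGS proteins, which shorten G protein signals, 3 of 7. The protease Dpp4, which trims chemokine ends, was higher (2.52, SE 0.53, adjusted p = 0.0281), and 2 of 7 genes of presentation or cleavage were called. Of related receptors, 2 of 5 were higher, Cmklr1 and Ccrl2, and of 3 tested ligands outside the naming rule 0 were called by edgeR, with Pf4 at 3.19 (SE 0.89, adjusted p = 0.0572). Several of these genes are leukocyte genes, and T cell and macrophage markers moved with them in the way given above.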

How the data were processed

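Bulk RNA-seq was available from 6 libraries (3 KO, 3 WT), made with Smart-seq2, which does not mark strand, from 5000 to 20000 cells per sample, per the labels' protocols. Per the file headers, the authors deposited raw counts of reads by gene, with merged exon lengths, in 1 table. The submitters' processing notes name mm10 and DESeq2. The sources used here do not name the aligner, annotation release, strand setting or treatment of multiply aligned reads. No column was left out.

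KO was compared with WT in R 4.3.3 with edgeR 4.0.16 and its quasi-likelihood test (group as the only term, TMM scaling, filterByExpr defaults, Benjamini-Hochberg adjustment over 18621 genes, threshold 0.05). The SE was taken from the fold change (log2) and its F statistic. CPM used TMM-scaled library sizes, and TPM the deposited lengths. Pair ratios added 0.5 counts and were compared by an exact two-sided permutation test. The labels do not name separate animals, so p-values cover only sample-to-sample spread, possibly technical. Alternatives were DESeq2 1.42.0, limma-voom (limma 3.58.1), robust edgeR, RLE or no composition scaling, no low-count filter, another offset and leaving out each library. The limit of 3 counts for a count of 0 covers counting error only. On simulated counts, the fit recovered 26.6% of 94 genes changed 4-fold and 90.0% of 100 changed 16-fold at the threshold, with 6 false calls. These genes, of 18135 fitted, were changed up or down at random. The data instead gave 2083 calls higher and 42 lower, so the simulated rates need not hold for them. A missed threshold does not show that the groups were equal.

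The members, pairs and lists were chosen with earlier results of these data known. Named were Siglece, every member past the threshold, members in a listed pair and the 10 others with the highest mean TPM. The neutrophil and adipocyte markers, Gfap and the pathway genes were named after their values were seen. 1 member enters the counts and sums, and its values and pairs are not reported here. Gene positions matched GENCODE M21 for 54 of 54 members, and shared exons and 50-base stretches were counted in it.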

Additional observations from a re-analysis of the deposited data

How the results depend on the processing

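Under 12 other settings, each of the 19 called chemokine genes stayed higher in KO, while the calls moved. Their direction could hardly change, because the groups did not overlap for any of them. Main counts were 10 ligands, 7 signalling receptors, 2 atypical receptors and 22 pathway genes higher. Limma-voom gave 4, 4, 0 and 13. Of genes lower in KO, DESeq2 and the fit with no low-count filter each called 1 ligand, against 0 in the main fit (edgeR). Of all genes, 2083 were higher and 42 lower, against 3261 and 1226 with DESeq2, 988 higher with limma-voom, 24 lower without composition scaling and 476 lower with no low-count filter. Leaving out 1 library gave 0 to 16 ligands higher and 0 to 1 lower, 0 to 11 receptors and 0 to 2 atypical receptors higher, 0 to 1 atypical receptors lower, and 0 to 33 pathway genes higher, with 0 to 4449 genes higher and 0 to 3629 lower over the whole table. The highest counts came without KO replicate 2, and the zeros without KO replicate 1 or any WT replicate. In those 4 fits edgeR gave 3461, 4931, 4282 and 4246 genes at an unadjusted p under 0.05. The cause was not tested. The median over the tested members ran from 1.52 to 2.16 (1.94 with all libraries). Without composition scaling the median of all genes was -0.18, against -0.05. Pairs with separate ratios numbered 11 to 15. Leaving out a library cannot make separate groups overlap, so this number could not fall in those settings. No paired analysis was possible because the labels give no shared replicate numbers. DESeq2 gave no adjusted p for Cxcl5 or Ccr3, so these have no verdict there. The 8 members under the filter had no main test.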
